A study of Rattus norvegicus with 20 samples.

Results

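The miRNAs rno-mir-375, rno-mir-216a, rno-mir-216b, rno-mir-217, rno-mir-7a-1, rno-mir-7a-2 and rno-mir-7b were followed through 20 rat small RNA libraries. These 7 precursors were chosen by name, with their mature arms, from the 444 miRNA precursors in the deposited lists, because the miRNAs are known from the pancreas and from hormone-secreting cells. All libraries came from male Long Evans rats, untreated and taken at postnatal day 35, and no group carried an allele, a transgene or an agent. Per the study's methods all tissues and serum came from the same 3 rats, so the groups are not independent animals. Brain was represented by 3 single hemispheres and blood serum by 3 single samples. Fat, heart, kidney, large intestine, liver, lung, muscle, pancreas, skin, small intestine, spleen, stomach, testes and thymus were each 1 library made from the pooled RNA of 3 rats, so these 14 pools have no replicates and a difference between 2 of them has no replicate check. Whole tissues and a whole hemisphere were homogenized, and in such bulk samples fewer cells of a type and less RNA per cell cannot be told apart.

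A miRNA precursor is a short hairpin RNA that is cut into a 5p and a 3p arm, each about as long as a binding site on a messenger RNA. The arm that is loaded into the silencing complex recognizes its targets mainly through the seed, the bases from position 2 to position 8. In mammals, miR-375 is best known as an abundant miRNA of pancreatic islet cells, where it restrains insulin secretion, and it is also made by epithelia and endocrine cells of the gut. miR-216a, miR-216b and miR-217 are commonly used as markers of the enzyme-secreting acinar cells of the exocrine pancreas. miR-7 is shared by islet cells, other neuroendocrine cells and neurons.

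Sequences are shown for the mature arms whose reads carry the results, in lower case with the seed in capitals. They were taken from RefSeq for the rat assembly GRCr8, in which all 7 precursors were matched, with 12 different mature arms between 20 and 23 bases long. The deposited mature list holds 9 of these 12 arms.
rno-miR-375-3p: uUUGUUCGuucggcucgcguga
rno-miR-217-5p: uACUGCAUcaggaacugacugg
rno-miR-216a-5p: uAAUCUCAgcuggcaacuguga
rno-miR-216b-5p: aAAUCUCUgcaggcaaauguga
rno-miR-7a-5p: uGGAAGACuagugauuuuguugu
rno-miR-7b: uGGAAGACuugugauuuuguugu
rno-miR-7a-1-3p: aCAACAAAucacagucugccau
rno-miR-7a-2-3p: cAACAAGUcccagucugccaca

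The miR-7 guides are the only pair that share a seed. Hairpins rno-mir-7a-1 and rno-mir-7a-2 give the same rno-miR-7a-5p, whose 23 bases match rno-miR-7b except for A10U, with positions counted from the 5′ end. A read of the 5p arm therefore cannot be assigned to 1 of the 2 mir-7a hairpins by its sequence, whereas their 3p arms are different. rno-miR-216a-5p and rno-miR-216b-5p match at 18 of 22 positions and differ by U1A, A8U, U11A and C17A. A8U lies in the last base of the seed, so the pair have different seeds. In the GRCr8 annotation rno-mir-216a, rno-mir-216b and rno-mir-217 lie inside the same long noncoding RNA gene, LOC102550402. rno-mir-7a-1 lies inside Hnrnpk, which encodes a protein that binds RNA, and rno-mir-375 lies inside a protein-coding gene named there LOC134480387, between Fev and Cfap65.

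Depth limited the members unequally. The precursor list held 388275 to 1204552 reads per hemisphere and 162080 to 3685761 reads per pool, but 7556 to 10862 reads per serum sample. Levels are given as RPM, a library's reads of a precursor scaled to a fixed total of precursor reads, with 95% Wilson intervals that cover counting error alone. A miRNA with no read could still be present up to the level worth 3 reads, which was between 0.814 and 18.5 RPM in a pool and between 276 and 397 RPM in a serum sample. rno-mir-375 had 104347 reads over the 20 libraries. The other members were rare. rno-mir-7a-1, rno-mir-7a-2 and rno-mir-7b had 124 reads together in the hemispheres and 68 in the pools, and rno-mir-216a, rno-mir-216b and rno-mir-217 had 111 and 48.

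The label of 1 library did not match its miRNAs. mir-122, the defining miRNA of liver cells, stood at 14862 RPM in the library labelled pancreas and at 14726 RPM in liver, against a median of 1.74 RPM over the 15 tissues. The correlation of log2(RPM + 1) over the 444 precursors between these 2 libraries was 0.972, the highest of the 105 pairs of tissues, and the next most like library to the one labelled pancreas was small intestine at 0.902. Of 154 precursors with at least 10 reads in either library, 22 differed more than 2-fold (14.3%), whereas the next closest pair of pools, large and small intestine, differed that much at 27.4%. Of the 5 markers listed for pancreas, rno-mir-216a and rno-mir-217 had no read, rno-mir-216b had 1 and rno-mir-375 had 100. The summed level of those 5 markers was still the highest of the 15 tissues at 104394 RPM, because mir-148a alone stood at 103893 RPM there and at 92294 RPM in liver. What produced the likeness to liver was not tested, and the levels below are those of the library labelled pancreas, not levels of verified pancreas. The listed markers of brain, striated muscle, gut and kidney epithelium and stratified epithelium were highest, as sums, in brain, heart, small intestine and skin. Those of leukocytes, of red cells and of germ and ciliated cells were highest in thymus, spleen and testes. Some markers were not found by name, which left 5 of 7 for striated muscle, 3 of 4 for gut and kidney epithelium and 2 of 3 for red cells. The striated muscle sum had no mir-133a, and muscle came second at 636 RPM against 4720 RPM in heart. For the gut and kidney set the library labelled pancreas came second, at 236256 RPM against 350309 RPM in small intestine, and liver stood at 233192 RPM.

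**Figure D1:**
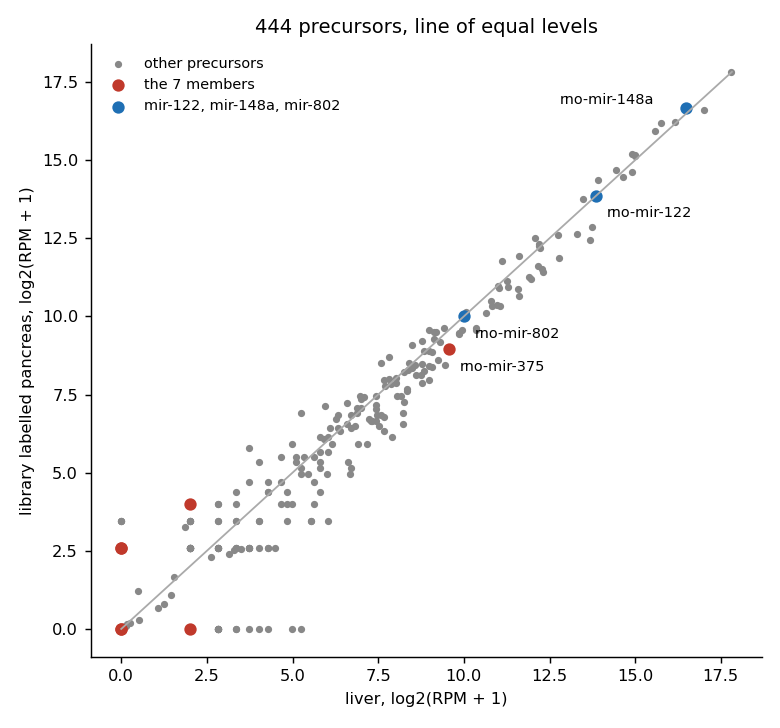
Each point is 1 of 444 precursors, with its level in liver on the horizontal axis and in the library labelled pancreas on the vertical axis, both as log2(RPM + 1), and the line marks equal levels. The points follow the line (r = 0.972), mir-122 and mir-802 lie on it, and rno-mir-375 lies below it at 496 RPM against 753 RPM in liver.

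rno-mir-375 reached its highest levels in gut and lung. It was highest in large intestine, at 18328 RPM with an interval of 18192 to 18466, where it took 1.83% of all precursor reads and ranked 7 among the precursors. Lung followed at 11499 RPM, small intestine at 7359 RPM, stomach at 4247 RPM and testes at 4128 RPM. These 5 tissues were each at least 8-fold over the median of the 15 tissues on the log2(RPM + 1) scale, by 5.21 in large intestine, 4.53 in lung, 3.89 in small intestine, 3.10 in stomach and 3.06 in testes. That fold was passed by 2.93% of all precursors in large intestine, 3.38% in lung, 2.25% in small intestine, 0.676% in stomach and 9.23% in testes.

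The library labelled pancreas lay in the middle of the range. Spleen stood at 1181 RPM, liver at 753 RPM, the library labelled pancreas at 496 RPM and kidney at 486 RPM. The 3 hemispheres were close together at 357, 305 and 322 RPM, a mean of 328 ± 26.5 RPM (SD, n = 3), followed by fat at 196 RPM. Thymus at 30.4 RPM, muscle at 22.2 RPM, skin at 11.95 RPM and heart at 6.94 RPM closed the order. Heart rested on 4 reads and skin on 9.

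Some neighbours in this order could not be separated by counting error. The interval of stomach, 4107 to 4393 RPM, lay inside that of testes, 3827 to 4452 RPM. The library labelled pancreas had an interval of 408 to 603 RPM that covered kidney, 433 to 544 RPM. Thymus overlapped muscle and skin but not heart, and muscle, skin and heart overlapped each other. Large intestine, lung, small intestine and stomach did not overlap each other, nor did spleen and liver.

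Between large intestine and the library labelled pancreas the ratio of rno-mir-375 levels was 37.0, and between large intestine and brain it was 55.9. With TMM factors, which scale each library so that most precursors stay level, the same ratios were 39.7 and 186, and with DESeq2 size factors they were 62.9 and 410. Large intestine was the highest tissue under all 3 scalings. Lung and small intestine changed places, since rno-mir-375 was at 8611 in lung and 16746 in small intestine after TMM, and at 12276 and 15381 after DESeq2 size factors. After TMM lung was also below stomach at 9193, and spleen at 688 was below liver at 1314, the library labelled pancreas at 988 and kidney at 933.

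**Figure D2:**
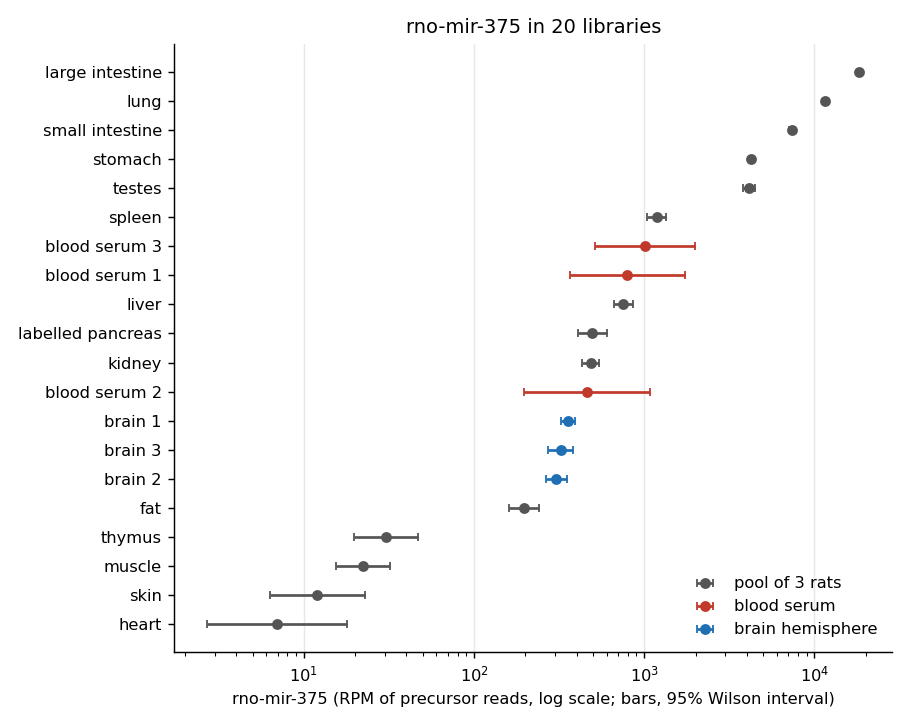
rno-mir-375 in each of the 20 libraries, in RPM of precursor reads on a log axis, with points for pools, hemispheres and serum samples and bars for 95% Wilson intervals. Large intestine at 18328 RPM and heart at 6.94 RPM are the ends of the range, and the library labelled pancreas lies near its middle at 496 RPM.

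Nearly all rno-mir-375 reads came from the guide arm. rno-miR-375-3p had 97921 reads, 93.8% of the precursor's reads, and no 5p arm of this hairpin was in the deposited mature list. By library the share ran from 85.6% in hemisphere 3 to 100% in the serum samples, skin, heart and thymus. In large intestine it was 94.0% of 67554 reads, and in the library labelled pancreas 93.0% of 100 reads. Within the mature list, rno-miR-375-3p stood at 22436 RPM in large intestine, 740 RPM in the library labelled pancreas and 327 to 383 RPM in the hemispheres.

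The acinar markers were not seen at the depth of the library labelled pancreas, apart from 1 read of rno-mir-216b. rno-mir-216a and rno-mir-217 had no read there, and 3 reads would have been 14.9 RPM. At the mean level of brain, 2.93 reads of rno-mir-216a and 7.29 reads of rno-mir-217 would have fallen into that library. The upper interval bound of 19.0 RPM for 0 reads lay above the brain level of rno-mir-216a and below that of rno-mir-217.

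Reads of both miRNAs were found in brain instead. rno-mir-217 stood at 35.7, 31.5 and 41.2 RPM in the 3 hemispheres, from 43, 18 and 16 reads, a mean of 36.2 ± 4.85 RPM (SD, n = 3). Among the pools it was highest in small intestine, at 25.6 RPM from 12 reads, then in spleen at 9.37 RPM from 2 reads and in lung at 3.35 RPM from 8 reads. It had 1 read each in kidney, liver, muscle and stomach and none in the other 7 pools. By library totals all 14 pools lay below the lowest hemisphere, as they did for 5 of the 7 members and for 29.7% of all precursors. The interval of small intestine, 14.7 to 44.8 RPM, still covered all 3 hemispheres.

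rno-mir-216a followed nearly the same pattern at a lower level. The hemispheres held 13.3, 12.3 and 18.0 RPM, from 16, 7 and 7 reads, a mean of 14.5 ± 3.08 RPM (SD, n = 3). Small intestine came next at 10.7 RPM from 5 reads, spleen at 9.37 RPM from 2 reads and lung at 4.18 RPM from 10 reads. It had 1 or 2 reads in large intestine, muscle and thymus and none in the other 8 pools. rno-mir-216b had 5 reads in all, of which 1 came from hemisphere 1, 3 from hemisphere 2 and 1 from the library labelled pancreas. That single read made the library labelled pancreas its highest tissue, at 4.96 RPM with an interval of 0.875 to 28.1 RPM, against 2.03 ± 2.83 RPM (SD, n = 3) in brain.

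Whether brain or small intestine was higher for rno-mir-216a and rno-mir-217 depended on the scaling. By library totals brain was above small intestine for both. After TMM small intestine was above brain, at 24.3 against 9.10 for rno-mir-216a and 58.3 against 22.9 for rno-mir-217, and after DESeq2 size factors at 22.3 against 5.78 and 53.5 against 14.4. The factors of the 2 tissues moved in opposite directions, from 1.26 to 1.89 for the hemispheres and 0.439 for small intestine in TMM.

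Many reads of rno-mir-217 fell outside its listed arm. rno-miR-217-5p, its only listed arm, had 43 reads in brain against 77 for the precursor (55.8%) and 8 in the pools against 26 (30.8%). In the mature list it stood at 23.5, 22.7 and 24.4 RPM in the hemispheres and at 13.3 RPM in small intestine. rno-mir-216a had both arms listed, and these held 46 of its 51 reads. The 5p arm took 20 of the 27 arm reads in brain (74.1%, interval 55.3 to 86.8%) and 14 of 19 in the pools (73.7%, interval 51.2 to 88.2%).

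By library totals the mir-7 hairpins were highest in brain, an order that other scalings changed for both mir-7a hairpins. Every hemisphere was above every pool for each of the 3, as for 29.7% of all precursors. For rno-mir-7b the lowest hemisphere, at 3.50 RPM, lay below the level worth 3 reads in pools such as fat, 6.13 RPM. Having 0 reads does not separate such pools from brain. rno-mir-7a-1 stood at 21.6, 29.8 and 64.4 RPM, from 26, 17 and 25 reads, a mean of 38.6 ± 22.7 RPM (SD, n = 3). Hemisphere 3 was 2.98 times hemisphere 1. Among pools it was highest in thymus at 16.7 RPM from 11 reads, followed by the library labelled pancreas at 14.9 RPM from 3 reads, and it had at least 1 read in all 14 pools. The interval of the library labelled pancreas, 5.06 to 43.7 RPM, still covered every hemisphere but hemisphere 3.

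rno-mir-7a-2 was more even across the hemispheres, at 15.8, 22.8 and 25.8 RPM, from 19, 13 and 10 reads, a mean of 21.4 ± 5.12 RPM (SD, n = 3). No pool held more than 4 reads of it, and 7 pools held none. Testes at 6.17 RPM, the highest pool, and the library labelled pancreas at 4.96 RPM rested on 1 read each. For the library labelled pancreas the interval, 0.875 to 28.1 RPM, covered all 3 hemispheres. rno-mir-7b had 14 reads in brain, at 4.15, 3.50 and 18.0 RPM, and none in any pool. Hemisphere 3 was 5.14 times hemisphere 2, which rested on 2 reads.

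Summed over the 3 hairpins, mir-7 stood at 41.5, 56.1 and 108 RPM in the hemispheres. The pools ran from 1.67 RPM in lung to 19.8 RPM in the library labelled pancreas and 19.7 RPM in thymus. The order of brain and pools changed with the scaling for the mir-7a hairpins. After TMM rno-mir-7a-1 was at 29.6 in the library labelled pancreas, 29.4 in thymus and 22.9 in brain, and after DESeq2 size factors at 25.4, 32.0 and 15.5. rno-mir-7a-2 stayed highest in brain after TMM, at 13.2 against 9.88 in the library labelled pancreas, but not after DESeq2 size factors, at 8.49 against 8.92 in small intestine. Among the 15 tissues rno-mir-7b stayed brain-only under each scaling, since its pools had no reads. Its brain mean was 8.56 RPM, whereas 3 reads were 14.9 RPM in the library labelled pancreas and 18.5 RPM in testes. Such pools were too shallow to show that level.

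**Figure D3:**
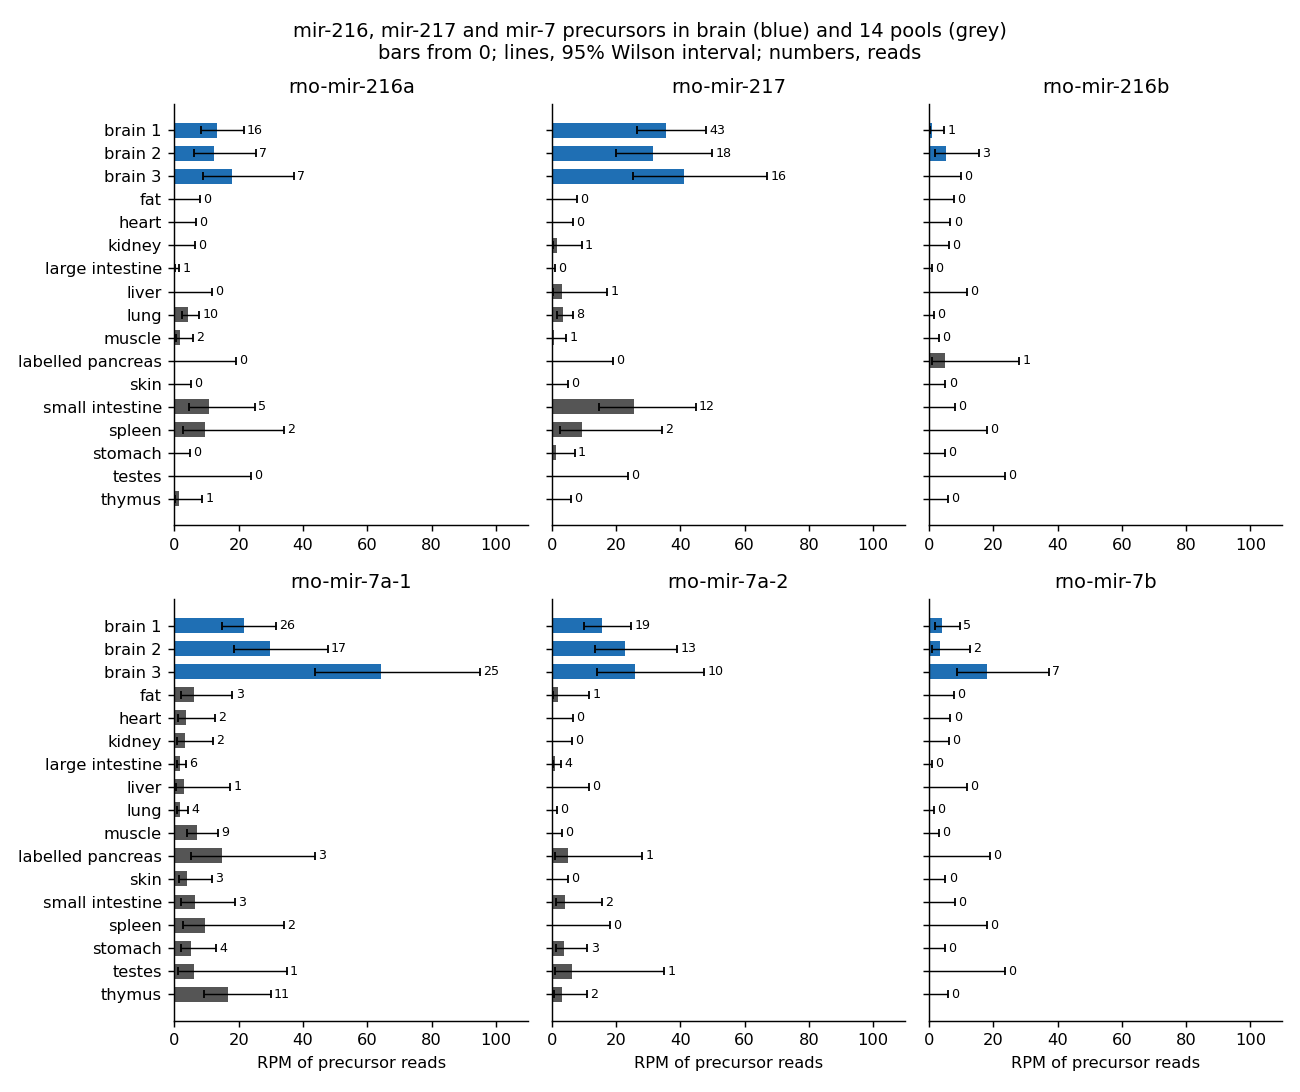
RPM of precursor reads for the 6 rarer members in the 3 hemispheres (blue bars) and 14 pools (grey bars), with 95% Wilson intervals as lines and reads as numbers. The hemispheres hold 43, 18 and 16 reads of rno-mir-217 and the library labelled pancreas none, and rno-mir-7b has reads in the hemispheres and in no pool.

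**Figure D4:**
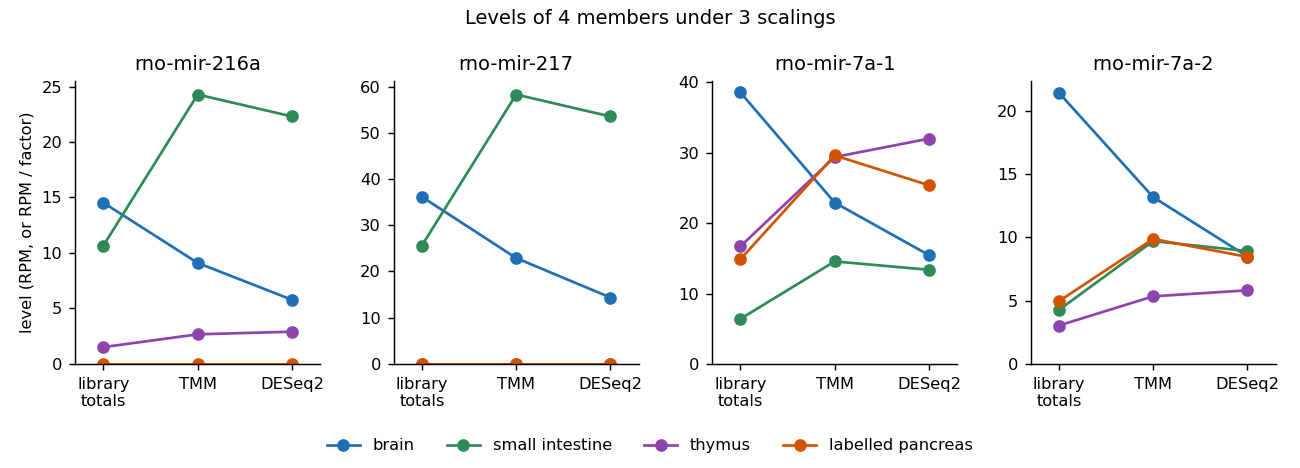
Levels of 4 members in brain, small intestine, thymus and the library labelled pancreas by library totals (RPM) and by RPM divided by TMM factors or DESeq2 size factors. Small intestine passes brain for rno-mir-216a and rno-mir-217, from 10.7 against 14.5 to 24.3 against 9.10 for the first, and thymus and the library labelled pancreas pass brain for rno-mir-7a-1.

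Arm reads of mir-7 were few. In brain the 2 mir-7a precursors had 110 reads, of which 50 (45.5%) were in a listed arm, 26 in rno-miR-7a-5p, 16 in rno-miR-7a-2-3p and 8 in rno-miR-7a-1-3p. In the pools 13 of 68 reads (19.1%) were in a listed arm, 3 in rno-miR-7a-5p, 9 in rno-miR-7a-1-3p and 1 in rno-miR-7a-2-3p. rno-miR-7b had 5 reads in brain against 14 for its precursor (35.7%). The whole mature list held 84.3 to 85.1% as many reads as the precursor list in brain and 60.3 to 87.8% in the pools. The listed arms of mir-7a, rno-mir-217 and, in brain, rno-mir-7b therefore held smaller shares of precursor reads than those lists as a whole. Where the other reads fell was not tested, and levels of the mir-7a and mir-7b hairpins cannot be read as levels of their mature guides.

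By count, 5 members were highest in brain by library totals, but 2 with TMM and 1 with DESeq2 size factors. By library totals 37.2% of all precursors were highest in brain. Of the members 1, rno-mir-216b, was highest in the library labelled pancreas, where 3.6% were. At least 8-fold over the 15-tissue median in brain were rno-mir-217 by 4.36 on the log2 scale, rno-mir-216a by 3.94 and rno-mir-7a-2 by 3.40. Those 3 of 7 stood beside 26.4% of all precursors. Just under the fold was rno-mir-7b at 2.93, and rno-mir-7a-1 was lower at 2.32. rno-mir-375, rno-mir-216a and rno-mir-217 passed it in small intestine, and rno-mir-216a passed it in spleen on 2 reads, where 4.95% of all precursors passed. No member passed it in the library labelled pancreas, where 2.48% of all precursors passed, but rno-mir-216b passed on its 1 read with TMM or DESeq2 size factors. Most of these medians were 0 or below 2 RPM, so that the fold of a rare member was set largely by the 1 RPM added before the log.

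The comparison of brain with the 14 other tissues asks which miRNAs are enriched in brain. Of the members, rno-mir-7a-1 was called higher in brain by edgeR's quasi-likelihood test, by 1.50 ± 0.549 (SE) on the log2 scale with a Benjamini-Hochberg adjusted p of 0.0382. That was 1 of the 4 members that passed the count minimum, beside 24.1% of the 295 precursors tested that were called higher in brain and 18.6% called lower. rno-mir-7a-2 differed by 2.40 ± 0.981 (SE, edgeR adjusted p = 0.0548) and rno-mir-217 by 2.17 ± 1.20 (SE, edgeR adjusted p = 0.135), without passing the threshold. rno-mir-375 had the largest difference and the widest error, -5.06 ± 2.54 (SE, edgeR adjusted p = 0.104), with pools between 6.94 and 18328 RPM on both sides of brain. rno-mir-7a-1, rno-mir-7a-2 and rno-mir-217 reached the count minimum by the hemispheres alone, so the count of calls is given as a description, and rno-mir-216a, rno-mir-216b and rno-mir-7b did not reach it.

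Because the error here is the spread between tissues and the hemispheres are 1 tissue, these p-values can be too small. The call on rno-mir-7a-1 was lost with DESeq2 (0.83, adjusted p = 0.282), with DESeq2 size factors in edgeR (0.74, adjusted p = 0.354), with no count minimum (1.21, adjusted p = 0.126) and when any 1 hemisphere or the fat, large intestine, muscle, skin or small intestine pool was left out. It held without the library labelled pancreas (1.53, edgeR adjusted p = 0.0434). With DESeq2 rno-mir-375 was called lower in brain (-5.77, adjusted p = 0.000421), and with library totals rno-mir-7a-2 and rno-mir-217 were called higher (3.72 and 3.52, edgeR adjusted p = 0.00304 and 0.0140). Without the small intestine pool rno-mir-217 was called higher too (3.68, edgeR adjusted p = 0.00236), and rno-mir-7a-2 was called without small intestine (2.56, edgeR adjusted p = 0.0477), stomach (2.75, edgeR adjusted p = 0.0353) or testes (2.63, edgeR adjusted p = 0.0431). With no count minimum rno-mir-7b was called higher in brain (edgeR adjusted p = 0.00967), against pools that had no read of it. Library totals moved the median difference of all precursors to 1.19, from 0.169 after TMM.

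The study profiled rat tissues and serum to look for possible origins of its candidate human serum biomarkers, which include none of these members. rno-mir-375 was measured in all 3 serum samples, at 794, 460 and 1009 RPM from 6, 5 and 8 reads, a mean of 754 ± 276 RPM (SD, n = 3). Each serum sample lay above each hemisphere, as for 2 of the 7 members and 12.8% of all precursors. In edgeR brain was lower than serum by -1.27 ± 0.357 (SE) on the log2 scale (adjusted p = 0.0077). rno-mir-7a-2 was found at 397, 276 and 126 RPM, from 3, 3 and 1 reads, and brain was lower by -3.89 ± 0.891 (SE, edgeR adjusted p = 0.00205). These 2 of the 4 members tested stood beside 18.7% of the 235 precursors that were called lower in brain and 44.7% that were called higher. All 4 reached the count minimum by the hemispheres alone, so this count of calls is also given as a description.

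The serum values of rno-mir-7a-2 rest on 7 reads in all. Of the 8 serum reads of the 2 mir-7a hairpins, 3 were in rno-miR-7a-5p, which both hairpins give, and 0 in rno-miR-7a-1-3p or rno-miR-7a-2-3p. No serum read in a listed arm therefore identified rno-mir-7a-2. A single serum read was worth 92.1 to 132 RPM, so any serum sample with a read of it had to lie above the hemispheres. Both calls stayed with DESeq2, at -1.49 (adjusted p = 0.000190) for rno-mir-375 and -4.08 (adjusted p = 1.48e-09) for rno-mir-7a-2, and the call on rno-mir-375 was lost with no count minimum (-0.73, edgeR adjusted p = 0.126). rno-mir-7a-1 and rno-mir-7b had 1 read each, both in serum sample 1, and rno-mir-216a, rno-mir-216b and rno-mir-217 had none. Over the 3 serum samples together 3 reads are 114 RPM, above the brain level of each of these 5, so a level below brain was not detectable at this depth. rno-mir-217 at its brain level would have given 0.953 reads.

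Across the 15 tissues the members did not share 1 pattern, by Pearson's r of log2(RPM + 1), which is given here as a description of points that share libraries and depth. The closest pair were rno-mir-216a and rno-mir-217 (r = 0.865), and next were rno-mir-7a-1 and rno-mir-7a-2 (r = 0.698), which also share their 5p arm. rno-mir-375 had r between -0.286 and 0.333 with the other 6. Among precursors with at least 10 reads in at least 3 libraries, those most like rno-mir-375 were mir-194-2 (r = 0.531), mir-194-1 (r = 0.528) and mir-145 (r = 0.500). The mir-194 hairpins were highest in small intestine and mir-145 in stomach.

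For 5 of the rarer members the most like miRNAs were highest in brain. Candidates needed at least 10 reads in at least 3 libraries, which the 3 hemispheres alone can meet and 1 pool alone cannot. Before that minimum 37.2% of all precursors were highest in brain, so this count is given as a description. For rno-mir-217 the most like were mir-383 (r = 0.787), mir-323 (r = 0.725) and mir-1224 (r = 0.697). rno-mir-216a was followed by rno-mir-217, mir-323 (r = 0.756) and mir-383 (r = 0.756). For rno-mir-7a-1 they were mir-338 (r = 0.755), mir-128-1 (r = 0.723) and mir-138-1 (r = 0.716), and for rno-mir-7a-2 mir-132 (r = 0.760), mir-129-2 (r = 0.736) and mir-129-1 (r = 0.732). rno-mir-7b was matched by mir-3543-1 (r = 1), mir-124-3 (r = 0.9995) and mir-764 (r = 0.997), as it has reads in 1 tissue. For rno-mir-216b, with 1 read outside brain, mir-101b (r = 0.564), which was highest in the library labelled pancreas at 13940 RPM, rno-mir-7a-1 (r = 0.562) and mir-219a-1 (r = 0.554) came first.

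A list of 20 other miRNAs known from pancreas or islets gave the setting for these values. All 20 were in the precursor list, and 2 were highest in the library labelled pancreas. They were mir-148a, abundant in acinar cells and also in liver, and mir-802 at 1021 RPM, against 1018 RPM in liver. mir-802 was also the only one at least 8-fold over the median there, by 9.49 on the log2 scale. The next highest levels of the list in that library were 22377 RPM for mir-26a, 6330 RPM for mir-30d, 1973 RPM for mir-182 and 694 RPM for mir-148b, none of which had its highest tissue there. mir-204, a miRNA known from islet cells, had no read in that library or in liver and stood at 5797 RPM in brain.

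Against the pools, edgeR called 1 of these 20 higher in brain and 2 lower, beside 24.1% and 18.6% of all precursors tested. mir-29a was higher by 0.90 (adjusted p = 0.0484), and mir-148a and mir-152 were lower, by -3.98 (adjusted p = 0.0103) and -3.62 (adjusted p = 0.000875). The median difference of the list was -0.683, beside 0.169 over all precursors tested. Against serum, 17 of the list were tested, 10 were called higher in brain and 4 lower, beside 44.7% and 18.7% of all, with a median of 3.27 beside 2.15 over all. When the count minimum was applied anew without 1 hemisphere, 68 of the 235 precursors were left. Most precursors thus reached it only through the hemispheres, so the counts and medians against serum are given as a description.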

How the data were processed

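Small RNA libraries (TruSeq Small RNA, MiSeq) were made by the authors from 20 rat samples. After trimming of bases below Phred 20, Bowtie aligned the reads to Rn5 and Partek quantified them (versions not given in the sources used here). The deposited values are estimated counts (expected counts, not normalized) of the same reads under 3 annotations, RefSeq, miRBase 21 precursors and miRBase 21 mature miRNAs. RPM was taken within an annotation.

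Groups followed the sample labels, and brain was the mean of 3 hemispheres among 15 tissues. Rounded precursor counts were tested with edgeR 4.0.16 (quasi-likelihood, TMM, at least 10 counts in at least 3 libraries, Benjamini-Hochberg threshold 0.05), brain against 14 pools and against serum, which use the same hemispheres. The SE given with an edgeR difference was derived as the absolute log2 difference divided by the square root of the test's F statistic. DESeq2 1.42.0 was an alternative. Code was tested on simulated data. p-values measure the spread between these libraries.

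The text names all 7 members and their arms, for each member the 3 most like precursors, and from the 20-miRNA list those highest in the library labelled pancreas and the next 4 by level there. mir-204 and the list's called miRNAs were named after their values were seen. Members and lists were chosen with earlier results of these data known.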

Additional observations from a re-analysis of the deposited data

How the results depend on the processing

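Against the main count of 5 members highest in brain there were 2 with TMM, 1 with DESeq2 size factors and 3 by guide arms of the mature list, settings added after seeing the data, and against 1 highest in the library labelled pancreas there were 2 with TMM. At least 8-fold in that library were 0 members, but 1 with TMM, with DESeq2 size factors, with a pseudocount of 0.1 RPM and with a 4-fold limit. In brain the count was 3, but 1 with DESeq2 size factors, 0 with a pseudocount of 10 RPM, 5 with a 4-fold limit and 1 with a 16-fold limit. Calls over all precursors between brain and pools were 126 (71 higher, 55 lower), with 123 higher and 24 lower by library totals, 52 and 82 with DESeq2 size factors, 69 and 119 with DESeq2, and 32 when 10 counts were required in every library, where 100 precursors were left. Leaving out 1 library gave 38 to 145, the lowest counts being those without 1 hemisphere (38 to 42, or 60 to 78 with the precursors held fixed, which was added after seeing the data). Between brain and serum 149 were called, 46 of 51 with 10 counts in every library, and 55 to 146 when 1 library was left out. With the count minimum applied anew, the fits without a hemisphere tested 68 precursors and none of the members. With the precursors held fixed, rno-mir-375 and rno-mir-7a-2 stayed called without each hemisphere. That fixed list had been chosen with the left-out hemisphere included, so this is given as a description. The replicate block gave 141 calls and changed neither member call. Samples of the same number shared little (r of 0.0953, -0.145 and -0.0352 over 73 precursors), and not every sample was most like its own number. The cause of these changes was not tested. Depth limited the rare members most: with no read, serum allowed a level of up to 114 RPM.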
